A study of Mus musculus with 9 samples.

Results

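The cyclin-dependent kinase (CDK) inhibitors of the Cip/Kip family (Cdkn1a, Cdkn1b and Cdkn1c) and of the INK4 family (Cdkn2a, Cdkn2b, Cdkn2c and Cdkn2d) were followed by gene symbol through 9 libraries of nuclear RNA from cardiomyocyte nuclei of the left ventricle. All 7 genes were present among the 41128 genes of the table. The family was selected on the level of Cdkn1a in the stressed cKO mice, so the stress comparisons of Cdkn1a are described here and were not tested. The other 6 members, and the comparison of Cdkn1a between the unstressed cKO and control groups, were not part of that choice.

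Nuclei were sorted from FVB mice at an age of 12 days with an antibody against PCM-1, a centrosomal protein that lines the nuclear membrane of cardiomyocytes. The 3 control mice (C1 to C3) are labelled wildtype, and the methods of the study give their genotype as Fstl1 WT/fl. The 3 unstressed cKO mice (U1 to U3) and the 3 cKO mice scored 1 for stress, with left ventricular volume overload (S1 to S3, score 1 cKO), are labelled Fstl1KO/fl;Tie2-Cre. In these mice 1 Fstl1 allele is a knockout in all cells, and the floxed allele is deleted by Tie2-Cre in the endothelial and endocardial lineage, which is not the sorted cell type. Stress was scored by the weight of the heart relative to the body, the unstressed cKO mice were male and the control mice female according to the study, and the title of U3 names a het cKO although its genotype entry equals that of the other cKO mice. Each library was taken as 1 mouse, from the mouse number in its title, and p-values therefore measure the spread between these mice.

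The libraries held 8262684 to 12698502 reads in genes. A level is given below as the deposited normalized count, reads per gene divided by a size factor of the library. Mitochondrial ribosomal RNA made up 3.84% of the U3 reads and 3.81% of the S2 reads, while the remaining 7 libraries had 0.941% to 1.15%. Cardiomyocyte markers were high in each library (Tnnt2, the cardiac troponin T gene, 85478 to 142499; Pcm1 968 to 1491). Fstl1 was between 69.6 and 145 in all 9 libraries, with a log2 difference of 0.17 ± 0.40 (SE) between score 1 cKO and control mice, and the sources used here do not name the deleted part of the gene, so this level does not check the genotype labels. Kdm5d, a Y-linked gene, was 705 to 893 in U1 to U3 and 841 in S3, and at most 5.41 in the other 5 libraries. The number series of the titles also differs between groups: C1, U1 to U3, S1 and S2 belong to 1 series and C2, C3 and S3 to another.

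CDK inhibitors set the pace of the cell cycle by holding CDKs inactive. Cip/Kip proteins bind complexes of cyclin E or A with CDK2 and can also help cyclin D to assemble with CDK4 or CDK6, while INK4 proteins bind CDK4 and CDK6 themselves and keep cyclin D away. Both routes keep the retinoblastoma protein in its active form, which holds back E2F factors and entry into S phase. In the mouse heart, cardiomyocytes leave the cell cycle in the first weeks after birth, and Cip/Kip proteins are known from knockout mice to take part in this exit.

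The promoters of 6 of the 7 members were found in RefSeq (GRCm38.p6) as 9 windows of 300 bases, from 250 bases before a transcript start to 50 bases into the transcript. Cdkn1c had none. The 4 windows below are printed because they lie before the member that stood apart in score 1 cKO mice (Cdkn1a, with 2 starts), before the member whose levels overlapped fully between the groups (Cdkn1b) and before a member with reads in 4 of the 6 cKO libraries and in no control library (Cdkn2b). Capitals mark the p53 decamer, the unit of a p53 response element, in the upstream Cdkn1a window, and the GC box GGGCGG in the other 3 windows.
Cdkn1a, upstream start (chr17:29090729-29091028, + strand): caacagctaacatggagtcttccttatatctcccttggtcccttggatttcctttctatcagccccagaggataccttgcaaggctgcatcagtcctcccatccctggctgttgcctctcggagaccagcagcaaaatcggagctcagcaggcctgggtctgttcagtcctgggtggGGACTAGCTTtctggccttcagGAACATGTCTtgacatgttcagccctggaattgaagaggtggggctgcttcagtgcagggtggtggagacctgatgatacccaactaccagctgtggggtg
Cdkn1a, downstream start (chr17:29093519-29093818, + strand): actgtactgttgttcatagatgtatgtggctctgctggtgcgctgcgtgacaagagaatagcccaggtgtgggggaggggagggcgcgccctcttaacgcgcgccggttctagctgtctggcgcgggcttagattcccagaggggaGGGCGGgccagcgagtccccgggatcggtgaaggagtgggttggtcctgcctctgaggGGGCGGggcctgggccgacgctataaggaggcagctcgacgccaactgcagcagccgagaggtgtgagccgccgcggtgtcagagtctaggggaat
Cdkn1b (chr6:134920151-134920450, + strand): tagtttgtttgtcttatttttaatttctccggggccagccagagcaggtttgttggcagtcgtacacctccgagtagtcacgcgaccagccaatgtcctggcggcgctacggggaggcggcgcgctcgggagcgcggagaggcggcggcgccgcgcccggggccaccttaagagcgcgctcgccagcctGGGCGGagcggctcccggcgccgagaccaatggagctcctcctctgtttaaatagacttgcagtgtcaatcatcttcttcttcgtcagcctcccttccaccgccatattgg
Cdkn2b (chr4:89310983-89311282, − strand): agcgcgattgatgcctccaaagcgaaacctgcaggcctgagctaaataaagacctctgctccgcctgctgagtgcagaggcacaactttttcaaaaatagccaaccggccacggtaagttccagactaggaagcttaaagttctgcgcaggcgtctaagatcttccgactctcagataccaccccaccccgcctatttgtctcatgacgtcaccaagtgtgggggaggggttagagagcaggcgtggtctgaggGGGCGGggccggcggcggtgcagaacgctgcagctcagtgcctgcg
The 2 starts of Cdkn1a lie in unlike surroundings. Around the upstream start, at base 29090979 of chromosome 17, the window held 2 CpG dinucleotides, no GC box and 2 p53 decamers beginning at its bases 178 and 200. Around the downstream start, at base 29093769, it held 23 CpG, 2 GC boxes and no p53 decamer. Among all 32851 windows of the table, 8.36% held a p53 decamer, 35.7% a GC box on either strand, 13.6% TATAAA, 37.4% CCAAT and 7.15% CACGTG, and the median window had 7 CpG. Of the 9 windows of the members, 7 held a GC box, 2 a p53 decamer (Cdkn1a and Cdkn2d), 4 CCAAT, 1 CACGTG (Cdkn2c) and 0 TATAAA. The Cdkn1b window held 30 CpG, 1 GC box and 3 CCAAT boxes, and the Cdkn2b window 18 CpG and 1 GC box. These matches are letters in a window and not measured binding, and counts per gene do not tell from which start the reads came. AC167363.2, annotated on the opposite strand across the downstream start, has no row in the table, so reads from that stretch may have been counted to either gene if strand was not used.

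Cdkn1a (ENSMUSG00000023067.8, chr17:29090976-29100727 of mm10, + strand) encodes p21, which blocks CDK2 and is a classic target of p53. It was higher in each score 1 cKO library than in any of the other 6 libraries. The level was 49.6, 13.5 and 97.9 in C1 to C3, and 83.3, 50.2 and 33.7 in U1 to U3. It was 929, 195 and 147 in S1 to S3, from 1030, 228 and 157 reads. The score 1 cKO libraries did not overlap the others, but S3 stood only 1.50-fold above the highest of them, and S1 alone held 73.1% of the summed level of its group. This lack of overlap above the other libraries was also seen for 231 of the 13454 genes tested, which is 1.72%, and nothing is read from it for Cdkn1a, because the gene was chosen on this contrast.

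As group means, Cdkn1a reached 53.7 ± 42.4 for control, 55.7 ± 25.3 for unstressed cKO and 424 ± 438 for score 1 cKO mice (SD, n = 3 each). The score 1 mean was 7.75-fold that of the 6 other mice, and the mean of S2 and S3, 171, was 3.13-fold. On the log2(normalized count + 1) scale, which makes low levels differ less, the difference was 2.85 ± 0.69 (SE) against control mice, 2.50 ± 0.69 against unstressed cKO mice and 2.67 ± 0.58 against all 6. Without S1 the last of these was 1.86. Within the title number series it was 3.08 against control in the series of C1, S1 and S2, and 1.97 in the series of C2, C3 and S3. Kdm5d was high in S3 and low in S1 and S2, and the part of sex in the levels of Cdkn1a was not tested. Without U3 and S2, the libraries with more mitochondrial ribosomal RNA, the difference from the other mice was 2.89.

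Between unstressed cKO and control mice, the comparison of Cdkn1a that did not serve its choice, the log2 difference was 0.35 ± 0.69 (SE; limma, adjusted p = 0.9996). The 2 groups overlapped, and the range within control mice was wide, with C3 at 7.27-fold of C2. The adjusted p was 0.958 or more under each alternative run. Leaving out C2 turned the difference to −0.41.

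**Figure D1:**
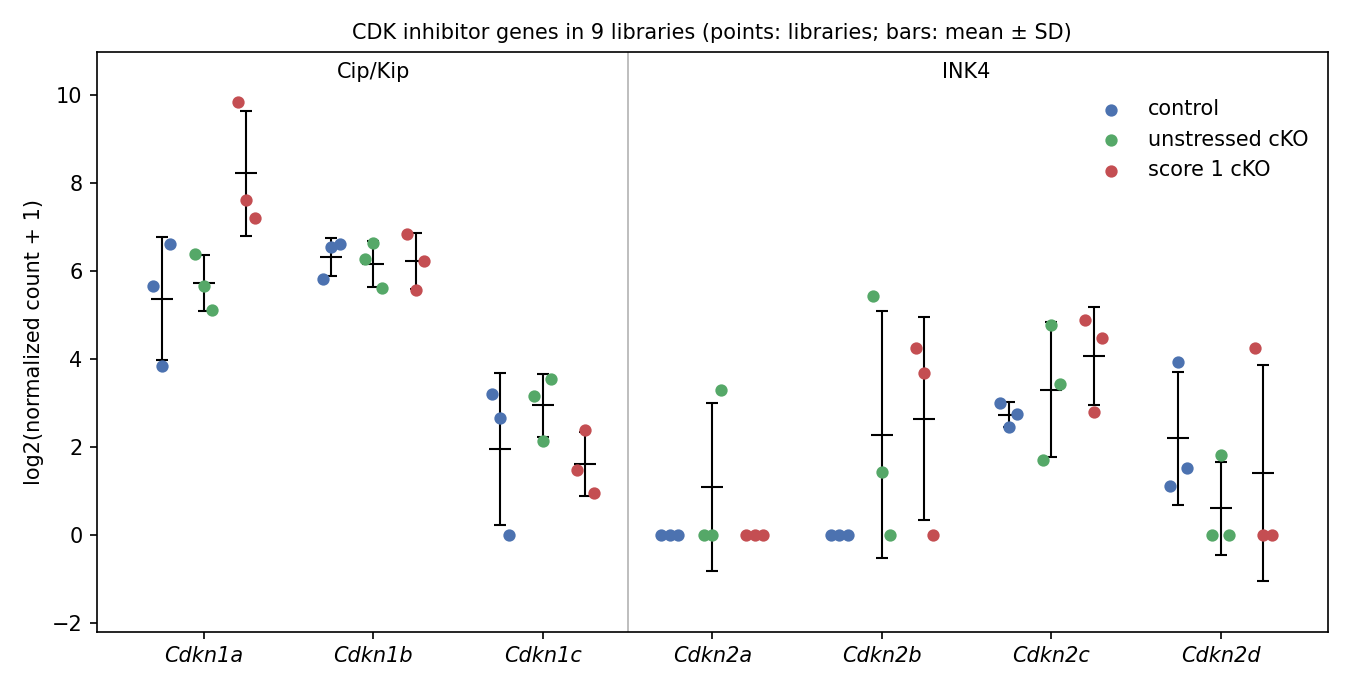
Levels of the 7 CDK inhibitor genes on the log2(normalized count + 1) scale (y axis), by gene (x axis), for control (blue), unstressed cKO (green) and score 1 cKO mice (red); points are libraries in order of their number, horizontal marks the mean and bars the SD of 3 libraries. Cdkn1a stands apart in the 3 score 1 cKO libraries, Cdkn1b lies between 47.0 and 115 in all 9, and the other 5 genes lie low, with several libraries at 0.

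Cdkn1b (ENSMUSG00000003031.9, chr6:134920401-134925513, + strand) encodes p27, the Cip/Kip protein that holds CDK2 in resting cells and is cleared through Skp2 when cells enter S phase. Its level was 55.5, 92.4 and 96.9 in control mice, 76.5, 98.6 and 47.9 in unstressed cKO mice and 115, 47.0 and 74.9 in score 1 cKO mice. The groups overlapped fully: the highest and the lowest of the 9 values both came from score 1 cKO mice. The means were 81.6 ± 22.7, 74.3 ± 25.4 and 78.8 ± 33.9 (SD, n = 3 each). The log2 difference was −0.15 ± 0.49 (SE) between unstressed cKO and control, −0.10 ± 0.49 between score 1 cKO and control, 0.05 ± 0.49 between the cKO groups and −0.02 ± 0.41 between score 1 cKO and the 6 other mice, with adjusted p of 0.979 to 0.9996 in limma. With an SE of 0.41 to 0.49, a small difference in either direction was not detectable.

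Per kilobase of exon, the scale on which genes of unlike length can be set side by side, Cdkn1a and Cdkn1b were close in control mice (15.1 and 17.9) and in unstressed cKO mice (15.7 and 16.3). In score 1 cKO mice Cdkn1a was at 119 and Cdkn1b at 17.3 per kilobase. The quotient of their normalized counts was 0.89, 0.15 and 1.01 in C1 to C3, 1.09, 0.51 and 0.70 in U1 to U3, and 8.11, 4.15 and 1.96 in S1 to S3. Cdkn1b was thus the larger or nearly equal partner in the 6 libraries without stress, and Cdkn1a the larger in the 3 with a stress score of 1, with the numerator again being the gene of the choice.

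Cdkn1c (ENSMUSG00000037664.7, chr7:143458339-143461050, − strand) encodes p57, a Cip/Kip protein expressed from the maternal allele of the imprinted Kcnq1 domain. It was low: 8.27, 5.38 and 0 in control mice, 7.99, 3.40 and 10.6 in unstressed cKO mice and 1.80, 4.27 and 0.937 in score 1 cKO mice, from 44 reads in all. It passed a level of 10 in only 1 library and was not tested. Kcnq1ot1, the paternally expressed noncoding RNA of the same domain, was abundant in each library, at 4609.7 to 10254, and overlapped between groups. Gm44732, on the opposite strand of Cdkn1c, has no row in the table.

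The INK4 genes were present at few reads. Cdkn2a (ENSMUSG00000044303.6, chr4:89274471-89294653, − strand) gives rise to p16, an INK4 protein, and from another first exon to p19Arf, which stabilises p53; counts per gene cannot tell these transcripts apart. It had 10 reads in U3, a level of 8.87, and 0 reads in the other 8 libraries. A group of 3 libraries at 0 allows a mean of up to 0.996 in control and 0.897 in score 1 cKO mice (3 reads over the group, counting error only).

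Cdkn2b (ENSMUSG00000073802.4, chr4:89306299-89311039, − strand), which encodes p15, lies next to Cdkn2a on chromosome 4, at a distance of 11645 bases, and is known as a target of TGF-beta signalling. Its level was 0 in C1 to C3, 42.2, 1.70 and 0 in U1 to U3, and 18.0, 12.0 and 0 in S1 to S3. Reads were thus present in 4 of the 6 cKO libraries, with U3 and S3 at 0 like the control libraries. The mean of unstressed cKO mice (14.6 ± 23.9, SD, n = 3) was 14.7-fold the limit of 3 reads over the 3 control libraries. That of score 1 cKO mice (10.003 ± 9.18, SD, n = 3) was 10.05-fold this limit. The limit covers counting error of the control reads only. The spread between mice is not in these quotients, so they are not lower limits of a difference. The first quotient rests on U1: without it the unstressed mean was 0.850, under the limit of 0.996. Without S1 the second was 6.01-fold. Cdkn2b passed the filter on low levels through U1, S1 and S2, all of them cKO libraries, so that its choice for the test already favours a difference from control. It still did not pass the test: the log2 difference was 2.29 ± 1.59 (SE) between unstressed cKO and control (adjusted p = 0.9996), 2.65 ± 1.59 between score 1 cKO and control (adjusted p = 0.742) and 0.36 ± 1.59 between the cKO groups (adjusted p = 0.984, limma). In edgeR the unadjusted p was 0.0131 and 0.0199 for the comparisons with control, and the adjusted p 0.999 and 0.591. S3 and 2 of the 3 control libraries form a title number series in which no read of Cdkn2b was found, so the presence of its reads and this series cannot be told apart for these libraries. Gm12606, the noncoding RNA on the other side of Cdkn2a, had reads only in U1 (10.3), which was also the library with most Cdkn2b.

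Cdkn2c (ENSMUSG00000028551.9, chr4:109660876-109667189, − strand) encodes p18, an INK4 protein known from dividing precursors of many tissues. It was detected in all 9 libraries, at 7.09, 4.49 and 5.70 in control mice, 2.28, 26.4 and 9.76 in unstressed cKO mice and 28.9, 5.98 and 21.5 in score 1 cKO mice. Control mice lay close together, and in both cKO groups 1 library or more lay far above them while S2 and U1 did not. The log2 difference was 1.33 ± 1.002 (SE) between score 1 cKO and control (adjusted p = 0.798), 0.57 ± 1.002 between unstressed cKO and control (adjusted p = 0.9996) and 1.04 ± 0.85 between score 1 cKO and the 6 other mice (adjusted p = 0.789, limma). These differences did not pass the threshold of 0.05. Like Cdkn2b, Cdkn2c passed the filter on low levels only through cKO libraries (U2, S1 and S3). Its choice for the test thus already favours a difference from control.

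Cdkn2d (ENSMUSG00000096472.1, chr9:21288410-21291407, − strand), which encodes p19Ink4d, is often expressed in cells that have left the cell cycle, as in neurons. It was at 1.18, 14.4 and 1.90 in control mice, 0, 2.55 and 0 in unstressed cKO mice and 18.0, 0 and 0 in score 1 cKO mice, from 42 reads, and was not tested. Single libraries (C2 and S1) held most of its reads.

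**Figure D2:**
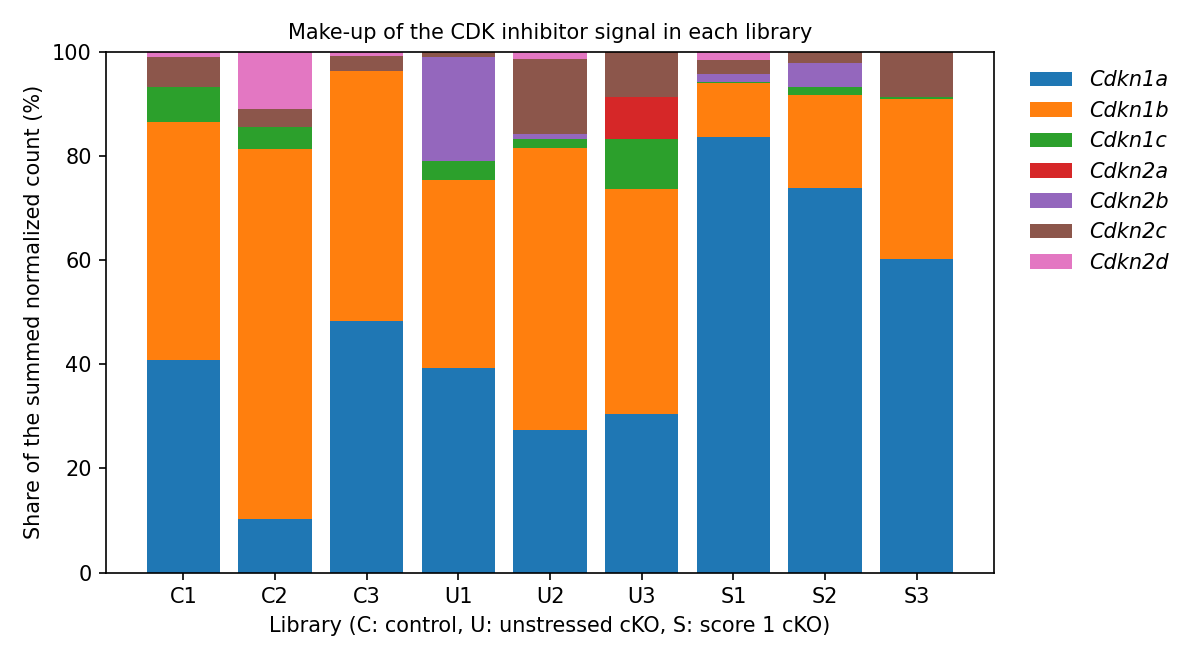
Share of each gene in the summed normalized count of the 7 CDK inhibitor genes (y axis, %) in each library (x axis: C control, U unstressed cKO, S score 1 cKO). Cdkn1a makes up 60.2% to 83.7% in the score 1 cKO libraries and 10.3% to 48.4% in the other 6, and the INK4 genes take the larger shares in U1, U2 and U3.

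Summed over the 7 genes, control mice had 122 to 202, unstressed cKO mice 111 to 212 and score 1 cKO mice 244 to 1111. Without Cdkn1a the sum was 72.1 to 117, 77.2 to 133 and 69.2 to 181, so that the groups overlapped. In control libraries Cdkn1b took 45.6% to 71.0% of the sum and Cdkn1a 10.3% to 48.4%. In score 1 cKO libraries Cdkn1b took 10.3% to 30.7%. The 4 INK4 genes together were at 8.27, 18.8 and 7.60 in C1 to C3, 44.5, 30.6 and 18.6 in U1 to U3 and 65.0, 17.9 and 21.5 in S1 to S3, with C2 inside the range of the cKO libraries. The make-up of the INK4 sum varied between mice: Cdkn2b led in U1, Cdkn2c in U2, U3, S1 and S3, and Cdkn2b again in S2.

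A gene was tested where its level was at least 10 in at least 3 libraries, which 13454 genes and 4 of the 7 members passed (Cdkn1a, Cdkn1b, Cdkn2b and Cdkn2c). By limma at an adjusted p of 0.05, 0 of the 4 members were called between unstressed cKO and control mice, where 0% of all tested genes were called. Of the 3 members other than Cdkn1a, 0 were called between score 1 cKO and control mice (0% of all genes), 0 between the cKO groups (0% of all genes) and 0 between score 1 cKO and the 6 other mice (0.00743% of all genes, which is 1 gene, Myc). At an unadjusted p below 0.05 the count was 0 by limma in each of the 4 comparisons. DESeq2 and edgeR, run on the reads recovered from the table, called 0 of the same members at the adjusted threshold, and at the unadjusted one counted Cdkn2b in score 1 cKO against control (both tools; DESeq2 gave it no adjusted p there) and in unstressed cKO against control (edgeR only). Over all genes DESeq2 called 9, 36, 27 and 58 in the 4 comparisons, so that the number of called genes depended on the tool. The comparisons share libraries (the control mice, and the score 1 cKO mice) and are not independent of each other.

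**Figure D3:**
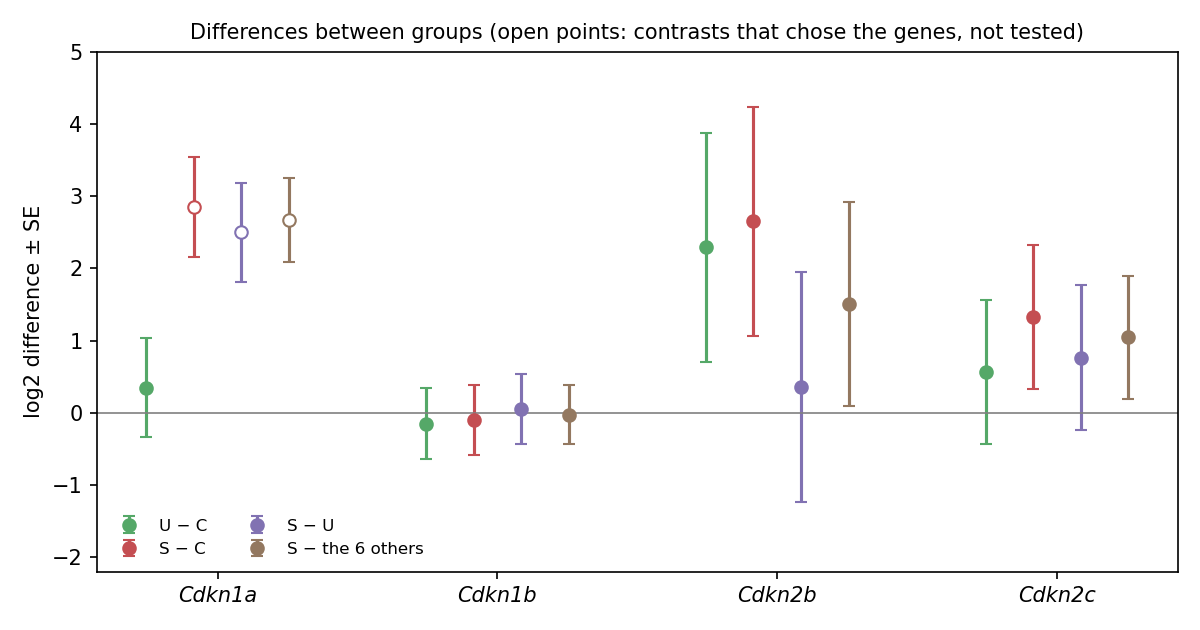
Log2 difference between groups (y axis, points with bars of 1 SE, limma) for the 4 genes that passed the filter on low levels; colours are the 4 comparisons, and open points are the contrasts of Cdkn1a that led to the choice of the family and carry no test. Cdkn1b lies between −0.15 and 0.05 in the 4 comparisons, and the bars of Cdkn2b are the widest.

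Of the direct partners of the CDK inhibitors, the cyclins and their kinases, no gene passed the test. Of the 16 cyclins and kinases listed, 13 were tested, and 0 were called by limma, DESeq2 or edgeR between score 1 cKO and control mice (0 at an unadjusted p below 0.05 by limma). Over all genes in this comparison, limma and edgeR also called 0 and DESeq2 36. A count of 0 therefore says little about this list or the lists below. At an unadjusted p below 0.05, limma counted 4.38% of all tested genes as higher and 3.29% as lower. Their log2 differences ran from −0.79 to 0.96, 6 above and 7 below 0, with a median of −0.01, equal to that of all genes (−0.01). Cdk4 and Cdk6, the kinases held by INK4 proteins, were at 196 to 355 and at 166 to 303 over the 9 libraries, with log2 differences of 0.19 and 0.16. Cdk2, the main kinase held by p21 and p27, was at 10.6, 87.0 and 49.4 in control mice, 60.5, 11.1 and 37.3 in unstressed cKO mice and 50.5, 79.5 and 64.6 in score 1 cKO mice (log2 difference 0.80 ± 0.74 SE, adjusted p = 0.842). Cdk7, the kinase of the CDK-activating complex, had 158, 122 and 233 in control and 48.7, 170 and 103 in score 1 cKO mice (−0.79 ± 0.44 SE, adjusted p = 0.716), with overlap.

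Further down the pathway, 12 of the 13 pocket protein and E2F genes were tested and 0 were called by any of the 3 tools (0 at an unadjusted p below 0.05 by limma), 9 being above and 3 below 0, with a median log2 difference of 0.36. The smallest p belonged to E2f3 (0.64 ± 0.40 SE, adjusted p = 0.753), an E2F that drives S phase genes, and to Rbl1 (1.33 ± 0.98 SE, adjusted p = 0.798), the p107 pocket protein, which was 159 in S2 and at most 51.1 elsewhere. Rb1 itself was at 189 to 392 in all 9 libraries.

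Among the ubiquitin ligase genes that clear CDK inhibitors, 10 of 11 were tested and 0 were called by any tool, with 2 above and 8 below 0 and a median of −0.34. Ubac1, a subunit of the KPC ligase that degrades p27 in G1, was lower in each score 1 cKO library (62.2, 219 and 219) than in any other (249 to 413), a lack of overlap seen for 236 of all tested genes, or 1.75%. Its log2 difference from control was −1.15 ± 0.41 (SE) with an unadjusted p of 0.0112 and an adjusted p of 0.576, so it did not pass. Dtl, the receptor that hands p21 to its ligase in S phase, was at 27.1, 35.9 and 20.6 in score 1 cKO mice and 0 to 30.5 in the other libraries (1.57 ± 1.15 SE, adjusted p = 0.798).

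All 20 listed regulators of CDK inhibitor transcription were tested. By limma 0 were called between score 1 cKO and control mice. At an unadjusted p below 0.05, 2 were above 0 by limma, against 4.38% of all tested genes. DESeq2 called 1, Myc, and edgeR 0. Against the 6 other mice limma and edgeR also called Myc. MYC represses Cdkn1a, Cdkn1b and Cdkn2b through MIZ1. Myc was at 109, 180 and 149 in control mice, 148, 83.3 and 153 in unstressed cKO mice and 609, 377 and 532 in score 1 cKO mice, without overlap (1.72% of all genes lay above in this way). The log2 difference was 1.79 ± 0.35 (SE) from control (adjusted p = 0.199 in limma and 0.000548 in DESeq2) and 1.89 ± 0.30 from the 6 other mice (adjusted p = 0.0490 in limma). The study named Myc from these libraries, so its place in the list is not independent. Cbx7, a Polycomb protein that silences Cdkn2a and Cdkn2b, was at 10.6, 49.3 and 41.8 in control, 86.7, 64.6 and 158 in unstressed cKO and 105, 162 and 107 in score 1 cKO mice. All 6 cKO libraries were above the 3 control libraries. How many of all genes show this was not counted, and Cbx7 is named for its small p in this list. Its log2 difference from control was 2.07 ± 0.57 in score 1 cKO mice (limma, adjusted p = 0.474) and 1.73 in unstressed cKO mice (adjusted p = 0.9996).

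Among genes around p53, neither Trp53 nor another target passed the test. Trp53 was at 356, 245 and 316 in control, 317, 202 and 387 in unstressed cKO and 569, 262 and 491 in score 1 cKO mice (log2 difference 0.47 ± 0.34 SE, adjusted p = 0.797). Mdm2, the p53 target that returns p53 to degradation, was within 936 to 1384 in all 9 libraries (−0.15 ± 0.21 SE, adjusted p = 0.915). Of the 21 other p53 targets 18 were tested and 0 were called by any tool between score 1 cKO and control mice, with 7 above and 11 below 0 and a median of −0.22. At an unadjusted p below 0.05, 2 were higher and 1 lower by limma, where 4.38% of all tested genes were higher and 3.29% lower. The lower one was Fas, a death receptor gene, at 0 in S1 and S3 and 22.2 in S2, while control and unstressed cKO mice had 11.7 to 31.4 (adjusted p = 0.580). The higher ones were Btg2, an antiproliferative gene (1.39 ± 0.64 SE, adjusted p = 0.646), and Plk2 (0.71 ± 0.33 SE, adjusted p = 0.647). Plk2, a polo-like kinase gene, was 263, 269 and 264 in the score 1 cKO libraries and 114 to 187 in the others, and it was the 1 of 18 tested targets whose score 1 libraries lay above all others, against 1.72% of all genes tested. Trp53cor1, the p53-induced noncoding RNA that begins 11796 bases before Cdkn1a on the opposite strand, was at 37.8, 3.59 and 11.4 in control, 30.8, 33.2 and 9.76 in unstressed cKO and 23.5, 7.69 and 36.5 in score 1 cKO mice, so the score 1 libraries lay within the range of the others (adjusted p = 0.917). Plk2, Mdm2 and Trp53 were singled out here after their values were seen.

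**Figure D4:**
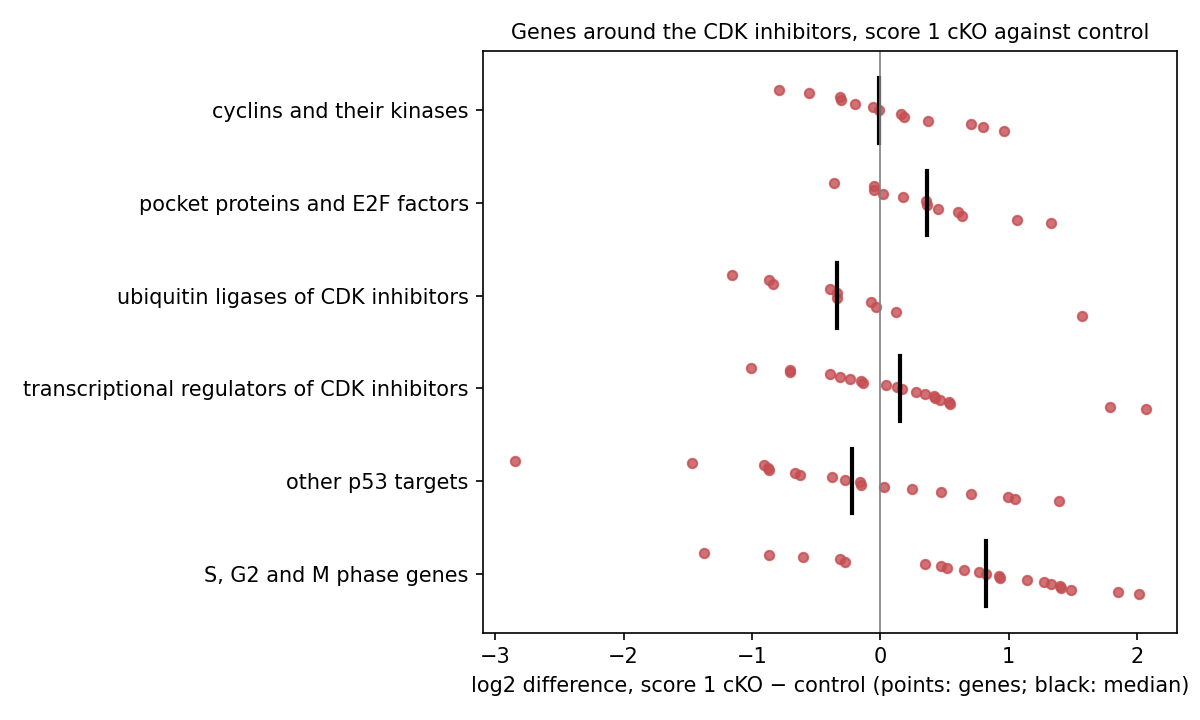
Log2 difference between score 1 cKO and control mice (x axis, limma) for the tested genes of 6 lists around the CDK inhibitors (y axis); points are genes and black marks the median of a list. The median of the S, G2 and M phase genes is the farthest to the right, at 0.83, and no list median reaches 1.

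Genes of S, G2 and M phase lay mostly above their control level in score 1 cKO mice, and 1 at most passed a test. Of 24 listed, 21 were tested, 16 lay above and 5 below 0 between score 1 cKO and control mice, and the median log2 difference was 0.83. By limma 0 were called (3 higher at an unadjusted p below 0.05, where 589 of all 13454 genes, 4.38%, were higher and 443, 3.29%, lower), by edgeR 0 and by DESeq2 1, Anln. Anln, which encodes the cytokinetic ring protein anillin, was at 112, 87.9 and 48.5 in control, 92.4, 94.4 and 77.2 in unstressed cKO and 655, 229 and 218 in score 1 cKO mice (2.02 ± 0.45 SE, adjusted p = 0.299 in limma and 0.00786 in DESeq2), and it too was named by the study from these libraries. Mki67, a marker of cycling cells, was at 150.1, 613 and 293 in control, 512, 385 and 459.6 in unstressed cKO and 666, 814 and 944 in score 1 cKO mice (1.41 ± 0.37 SE, adjusted p = 0.474). Mki67, Mcm4 and Anln were the 3 of the 21 tested genes whose score 1 libraries lay above all others, against 1.72% of all genes tested. For Mcm4 this was nearly a tie: S1 was at 18.9 and U3 at 18.6, from 21 reads each. Against unstressed cKO mice, 11 of the 21 lay above and 10 below 0, with a median of 0.27.

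Between unstressed cKO and control mice, 0 genes of these 6 lists were called by limma, DESeq2 or edgeR. Over all genes limma and edgeR called 0 here and DESeq2 9. By limma at an unadjusted p below 0.05, 1 regulator and 2 genes of S, G2 and M phase were higher, against 2.43% of all tested genes. Between the cKO groups limma and edgeR called 0 and DESeq2 called Myc and Anln.

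The order of the score 1 cKO libraries was not shared by these genes. S1, by far the highest for Cdkn1a, was also the highest for Anln (655), Myc (609) and Cdkn2c (28.9), but the lowest of the 3 for Mki67 (666) and Mcm4 (18.9). The cardiac stress gene Nppa was 208 in S1, 29.9 in S2 and 51.5 in S3, and 8.27 to 109 in the other libraries. Acta1, skeletal alpha-actin, was 3233 in S1, 1001 in S2 and 929 in S3, and 408 to 1483 in the other libraries. U2 (1483) and U3 (1293) lay above S2 and S3 for Acta1. S1 was the highest library for both Nppa and Acta1, and these levels were not used in a test with Cdkn1a.

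Genes whose level ran most like that of Cdkn1a over the 9 libraries were sought by the root mean square difference of log2 profiles, each centred on its own mean. The 5 nearest were Mapk11 (0.57), Slc28a1 (0.66), Bmyc (0.70), Dnm3os (0.70) and Csrnp1 (0.73), where the median of all tested genes was 1.71. Mapk11, which encodes the p38-beta stress kinase, was at 26.0, 11.7 and 35.2 in control, 54.8, 17.9 and 19.5 in unstressed cKO and 244, 54.7 and 46.8 in score 1 cKO mice, so U1 lay just above S2 and S3. Csrnp1, a nuclear protein gene induced by Axin, was highest in S1 (529), but U1 (249.95) lay above S2 and S3. Slc28a1 and Bmyc had 0 to 10.5 outside the score 1 group and 13.1 to 54.1 within it. Dnm3os, the host of miR-199a and miR-214, had 22.5 to 55.03 in score 1 cKO mice and 2.69 to 18.7 in the others. Of all tested genes, 1.72% lay higher in the score 1 cKO libraries without overlap. The 5 genes were picked for their likeness to Cdkn1a, so this choice favours such a separation and nothing is read from it. Bmyc, moreover, passed the filter on low levels only through S1 to S3. The other CDK inhibitors lay near the median of all genes in this measure (Cdkn1b 1.57, Cdkn2b 1.74, Cdkn2c 1.47). The measure describes 9 libraries and carries no test.

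**Figure D5:**
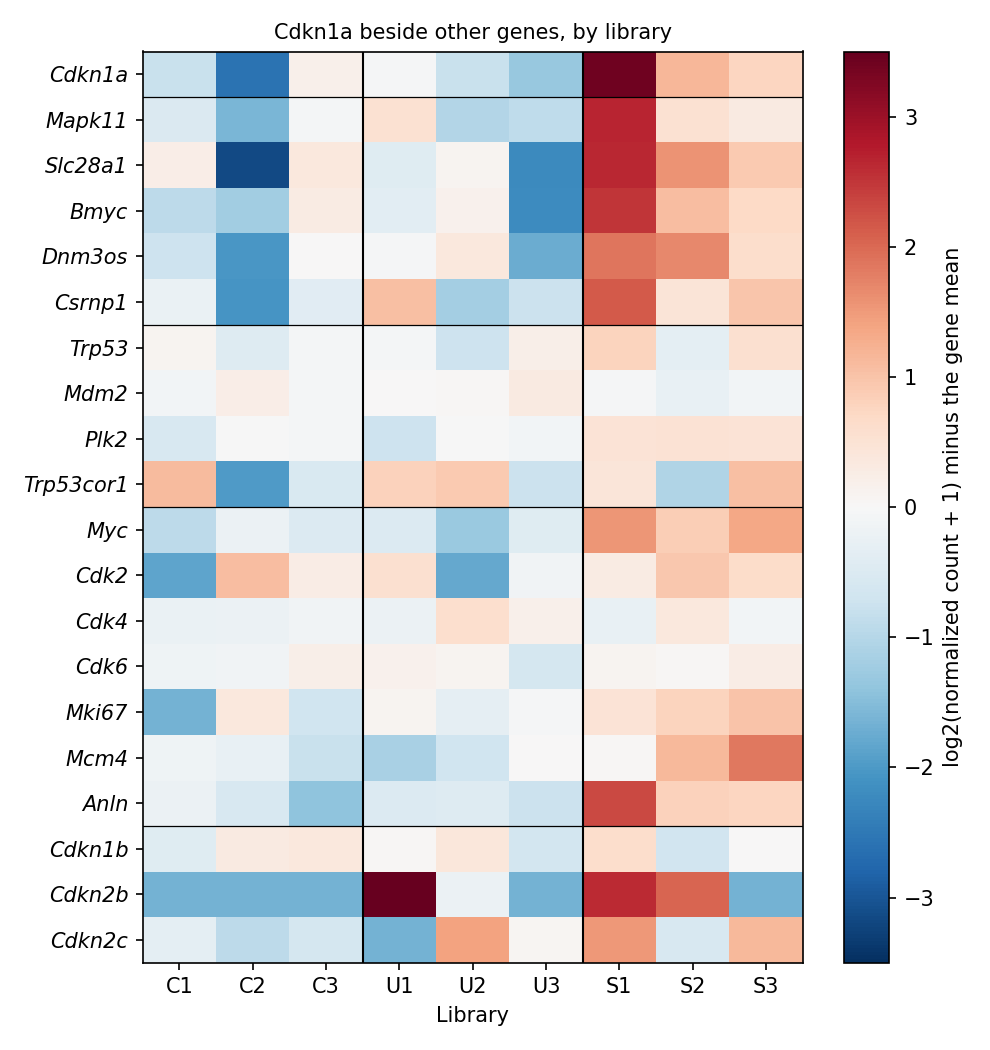
Level of Cdkn1a and of other genes (rows) in each library (columns), as log2(normalized count + 1) minus the mean of the gene over 9 libraries; red is above and blue below that mean, black lines part the groups and sets of genes. The second block holds the 5 genes most like Cdkn1a, and S1 is the darkest red column in it, while Mdm2, Cdk4 and Cdk6 stay close to white.

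Around the members, most of the nearest genes gave little signal, apart from Faf1 and Kri1. Rab44, after Cdkn1a, had reads in 2 libraries (4.49 in C2 and 16.2 in U2), Slc22a18, after Cdkn1c, had 1 read in each of U3 and S1, and Gm27901, before Cdkn1c, had 3.42 in U1 and 1.77 in U3. Near Cdkn1b, 2810454H06Rik reached 13.7 in U1 and at most 2.69 elsewhere. Gm12609, beside Cdkn2b, and Ap1m2, beside Cdkn2d, each had reads in 1 library. The abundant neighbour Faf1 (292 to 660, beside Cdkn2c) and 9630013D21Rik (5.38 to 34.2, before Cdkn2c) overlapped between groups. Kri1, beside Cdkn2d, was at 457 to 501 in control, 296 to 397 in unstressed cKO and 325 to 432 in score 1 cKO mice. All 6 cKO libraries were thus below the 3 control libraries, and how many of all genes show this was not counted. The Kri1 log2 difference from control was −0.41 ± 0.26 (SE) in unstressed cKO mice (limma, adjusted p = 0.9996). In score 1 cKO mice it was −0.35 ± 0.26 (SE; adjusted p = 0.798). Of the neighbours with a row in the table, 0 were higher in all 3 score 1 cKO libraries than in the other 6.

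Markers of other cell types were read beside these results, because the sorted fraction can hold other nuclei. The summed level of 10 endothelial markers was 997 to 1461 in control, 1245 to 1648 in unstressed cKO and 1443 to 1744 in score 1 cKO mice, with 10 of 10 log2 differences above 0 between score 1 cKO and control and 0 called. For 8 fibroblast markers the sum was 1720.4 to 1973, 1699 to 2094 and 1684 to 2771, and for 6 smooth muscle and pericyte markers 4361 to 6208, 5546 to 7609 and 2460 to 6147. The 6 leukocyte markers summed to 129 to 261, 151 to 177 and 96.6 to 114. No defining marker of the endothelial, fibroblast, smooth muscle or leukocyte list was at 0 throughout a group. Leukocyte markers were lowest in score 1 cKO mice, and the endothelial sums overlapped between score 1 cKO and control mice, with S3 below C2. The fibroblast sum was 2546 in S1 and 2771 in S2, above the 2094 of the highest other library (U3), and 1684 in S3. The smooth muscle and pericyte sum was lowest in S1, at 2460. Of the 6 cardiomyocyte markers, 0 log2 differences were above 0 and 6 below between score 1 cKO and control mice. Their median was −0.12 and 0 were called, with 1 lower at an unadjusted p below 0.05 by limma. The part of these cell types in the levels of the CDK inhibitors was not tested. In bulk RNA, more cells with a transcript and more transcript per cell cannot be told apart.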

How the data were processed

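RNA of PCM-1+ left ventricle nuclei from 9 mice was amplified and sequenced with single-end reads by the authors, with alignment by STAR to the mm10 build and normalization by DESeq2, per the labels and the methods, without versions. The sources used here do not name the annotation release, the counting program or the strand setting, so intronic reads of nuclear RNA may or may not be counted. The deposited signal is a normalized count, that is, reads per gene divided by a size factor of the library, and 100% of the values were whole multiples of 1 read (tolerance 0.001). Columns of the authors' own comparisons were not used.

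Genes that reached 10 normalized counts in 3 or more libraries (13454 of 41128) were tested on log2(normalized count + 1) with limma 3.58.1 with a variance trend, 3 groups in 1 fit (2 groups for score 1 against the 6 other mice), two-sided, with Benjamini-Hochberg adjustment over all genes tested at 0.05. DESeq2 1.42.0 and edgeR 4.0.16 on the recovered reads were alternatives in R 4.3.3, with other filters, pseudocounts, scalings, a series covariate and libraries left out. The scripts were tested on simulated data. Positions and exon lengths came from GENCODE M21 and promoters from RefSeq. The members and gene lists were chosen with earlier results of these data known. Named genes were the members, Fstl1, the 2 genes of smallest p between score 1 cKO and control per list, the neighbours of each member and the 5 genes most like Cdkn1a; Kcnq1ot1, Kdm5d, Pcm1, Tnnt2, Trp53, Mdm2, Plk2, Cdk4, Cdk6, Rb1, Mcm4, Acta1 and Nppa were added after their values were seen. Groups came from the sample labels. With 3 mice per group, only large differences can pass, and low members rest on few reads.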

Additional observations from a re-analysis of the deposited data

How the results depend on the processing

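The counts of called genes were within the same range in 285 of 287 alternatives, and 223 of 248 log2 differences of members kept their direction and their side of the threshold. The main limma fit and edgeR called at most 1 gene of all in any comparison. Counts of called genes thus had little room to change, and their agreement says little. The exceptions among counts were both from DESeq2 between score 1 cKO and control mice, with 1 regulator of CDK inhibitor transcription (Myc) and 1 gene of S, G2 and M phase (Anln) called, where limma called 0. The sign of small differences was not stable, and the cause was not tested. Between unstressed cKO and control mice, Cdkn1a was at −0.30 and Cdkn1b at 0.11 with the title number series as a covariate, and leaving out 1 library gave −0.41 to 0.97 and −0.40 to 0.13. Between score 1 cKO and control mice, Cdkn1b was at 0.0324 with the covariate and −0.41 to 0.22 with 1 library left out. Between the cKO groups, Cdkn1b was at −0.0784 with the covariate and −0.26 to 0.37 with 1 library left out, Cdkn2b at −0.54 in DESeq2, −0.52 in edgeR and −0.78 to 1.68 with 1 library left out, and Cdkn2c at −0.0345 to 1.39 with 1 library left out. Between score 1 cKO and the 6 other mice, Cdkn1b was at 0.0133 in DESeq2, 0.0047 in edgeR and −0.34 to 0.30 with 1 library left out. Without U3 and S2 together, an alternative chosen after seeing the data because of their mitochondrial ribosomal RNA, Cdkn1b was at 0.13, 0.22 and 0.17 in unstressed cKO against control, score 1 cKO against control and score 1 cKO against the others. The difference of Cdkn1a between score 1 cKO and the 6 other mice was 1.86 to 3.18 over its alternatives. Cdkn1c, Cdkn2a and Cdkn2d rest on 44, 10 and 42 reads, which limits what can be said of them. No paired analysis was possible because the labels give no replicate numbers shared between groups.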
